A study of Mus musculus with 6 samples.

Results

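Genes of the lysosome were examined in epididymal white adipose tissue taken from male mice at 10 weeks of age. The members are 38 named genes: 12 of the vacuolar proton pump and its accessory proteins, 4 other lysosomal membrane proteins, 9 hydrolases of sugars and lipids with their activators, 10 cathepsins and other genes of protein degradation, and the 3 transcription factors of the MiT family. Every array probe set whose only annotated gene was one of these was taken, which gave 84 of 34958 such probe sets and 38 of 18194 genes. The tested mice carried the aP2-nSREBP1c transgene (3 mice, 1 array each). The strain field spells it aP2-nSrebp1c, aP2-nSrebp1 and aP2-SREBP1c in transgenic replicates 1, 2 and 3. The transgene encodes the nuclear form of SREBP-1c, a factor that activates genes of lipid synthesis, under the promoter of aP2 (Fabp4). That promoter is used for fat cells, and Fabp4 itself is also known to be expressed in macrophages. The controls were wild type mice matched by litter (WT; 3 mice, 1 array each), and all 6 mice had the mixed C57BL6;SJL background. The labels call the transgenic mice lipodystrophic, a state in which adipose tissue is missing or does not form properly.

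The lysosome is an acidic compartment in which proteins, lipids and sugar chains are broken down. The proton pump (V-ATPase) acidifies it: a catalytic V1 sector outside the membrane hydrolyses ATP, and a membrane-bound V0 sector carries the protons. Cathepsins are its proteases, and the other hydrolases remove sugars, sulphates and lipid head groups step by step. TFEB, TFE3 and MITF are related basic helix-loop-helix factors that bind the CLEAR element in promoters of many lysosomal genes. In fat, lysosomes of macrophages are known for taking up lipid released by dying fat cells.

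The promoters of several members hold the letters that MiT factors are known to bind, and 6 stretches are shown. Those of Gla, Ctsd, Mcoln1, Lamp1 and Atp6v1a were picked after their values were seen and lie at genes that rose without transgenic replicate 2. Ctsa is shown beside them as a gene that holds the same letters and did not pass the test, as is also true of Atp6v0d1 and Atp6v0e, which are not shown. RefSeq promoter windows (GRCm38.p6, 250 bases before to 50 after each annotated start) were matched for 32 of the 38 genes, in 39 windows (not for Atp6v1b2, Atp6v1c1, Atp6v1h, Asah1, Ctsb and Ctsh). The stretches are written 5′ to 3′ on the strand of the gene, with the CLEAR core TCACGTGA, the E-box CACGTG that lies inside it, and the M-box form TCACATGA (either strand) in capitals. Gla lies at chrX:134601176-134601255 (minus strand), Ctsd at chr7:142387888-142387967 (minus), Mcoln1 at chr8:3500419-3500498 (plus), Lamp1 at chr8:13159081-13159160 (plus), Atp6v1a at chr16:44139373-44139402 (minus) and Ctsa at chr2:164833743-164833772 (plus).
Gla: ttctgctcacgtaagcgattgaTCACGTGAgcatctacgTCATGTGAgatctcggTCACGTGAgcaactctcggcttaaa
Ctsd: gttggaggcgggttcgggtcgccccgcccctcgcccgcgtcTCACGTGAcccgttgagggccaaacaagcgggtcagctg
Mcoln1: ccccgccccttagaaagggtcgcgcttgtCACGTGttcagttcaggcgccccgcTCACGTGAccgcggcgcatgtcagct
Lamp1: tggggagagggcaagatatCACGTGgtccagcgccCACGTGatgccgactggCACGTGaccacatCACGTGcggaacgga
Atp6v1a: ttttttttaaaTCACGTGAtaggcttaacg
Ctsa: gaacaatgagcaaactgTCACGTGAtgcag

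The Gla stretch ends 171 bases before the start and holds the CLEAR core at 2 places with an M-box form between them. Ctsa also holds the core at 2 places in its window, at −13 and 4 relative to the start. Its stretch ends before the start and shows only the first. The Lamp1 stretch ends at the base before the start and holds the E-box at 4 places, none of them a full CLEAR core. The CLEAR core was found in 7 of the 39 member windows (17.9%), against 1.69% of 13498 windows of tested genes and 0.974% of all 32851 windows. For the E-box the shares were 33.3%, 9.39% and 7.15%, and for the M-box form 10.3%, 0.763% and 0.986%. The sterol regulatory element form TCACNCCAC was found in 0 of the 39 member windows and in 1.17% and 1.24% of the others. Both strands were searched, and a match describes letters in these windows, not binding. As the CLEAR element is known from promoters of lysosomal genes, its share in a list of such genes is no result of these arrays.

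Transgenic replicate 2 stood apart in measures of the array itself, which was known from earlier work when the comparison was planned. The ratio of 3′ to 5′ signal for the Actb control was 122 on that array, against 1.12 and 1.81 on the other transgenic arrays and 1.11 to 1.73 in wild type; for Gapdh the ratios were 55.9 on that array, 0.772 and 1.22 on the other transgenic arrays and 0.844 to 0.931 in wild type. Its median signal was also lower, at 37.7, against 61.7 and 62.5 on the other transgenic arrays and 53.4 to 65.4 in wild type. Results are therefore given with and without that array. The Pcx control split the arrays differently: the ratio was about 3 in transgenic replicate 1 (3.10) and wild type replicate 3 (3.06), and 14.1 or higher in the others. Markers of fat cells were detected in both groups: the brightest probe set of Adipoq, the adiponectin gene, had signals of 4626, 6774 and 6536 in transgenic fat and 11017, 10674 and 12188 in wild type fat. Of 7 epididymis markers on the array, 4 had a mean signal below 16.

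Lysosomal genes were more often higher than lower in transgenic fat. On all 6 arrays 3 of the 38 members passed the test as higher (Gla, Atp6v1a and Ctss), which is 7.89% of them, and 0 as lower. Of all 13112 tested genes 3.77% passed, 2.23% as higher and 1.54% as lower. At an unadjusted p under 0.05 by limma, 13 members were higher and 1, Smpd1, was lower. That level was also reached by 1238 of all 13112 tested genes as higher and by 1174 as lower. With transgenic replicate 2 left out, 15 members rose, Smpd1 fell and the other 22 missed the threshold. The 15 are 39.5% of the members, beside 8.04% of all tested genes that rose, and the 1 is 2.63%, beside 7.33% that fell (15.4% in either direction). The median log2 fold change of the members was 0.33 on all 6 arrays and 0.52 without transgenic replicate 2, beside medians over all tested genes of −0.04 and 0.02. In the fit, log2(signal + 16) of each gene's brightest probe set was compared with limma, and an adjusted p under 0.05 over all 27023 tested probe sets counted as passing.

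**Figure D1:**
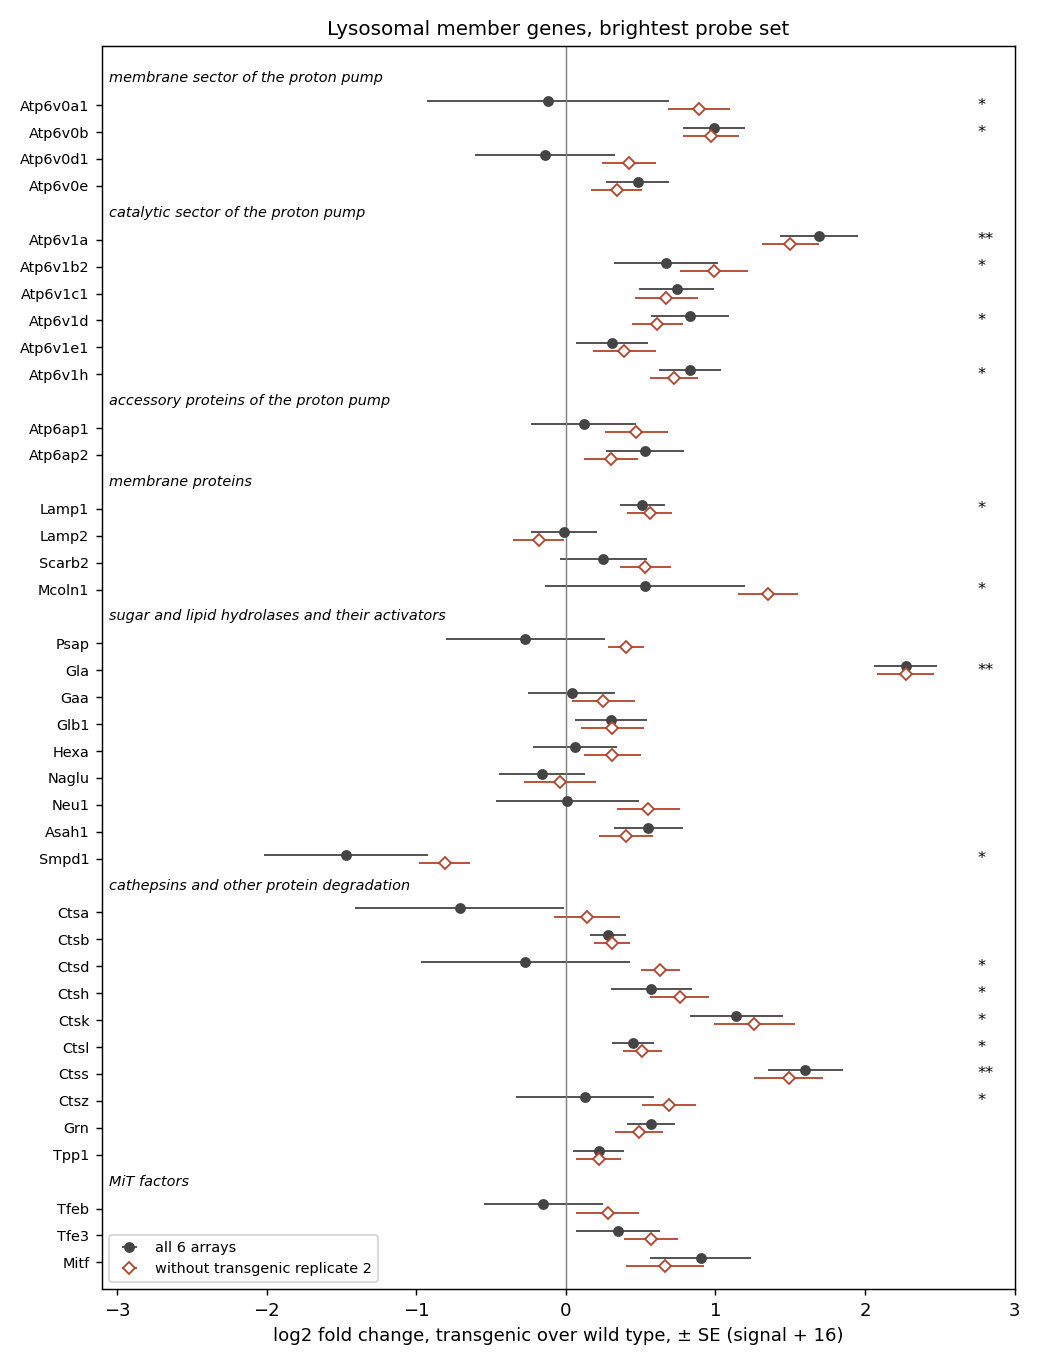
Log2 fold change of transgenic over wild type (x axis, on the log2(signal + 16) scale, bars ± SE) for the 38 members in order of role, on all 6 arrays (filled circles) and without transgenic replicate 2 (open diamonds). Double stars mark the 3 genes past the threshold on all 6 arrays, and they and those with 1 star passed it without transgenic replicate 2; the bars of Atp6v0a1, Ctsd, Mcoln1 and Psap are long only where that array is included.

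The groups did not overlap for 18 of the 38 members on all 6 arrays: every transgenic signal lay above every wild type signal for 17, and below for Smpd1. Over all tested genes 14.1% lay wholly above and 16.3% wholly below. When transgenic replicate 2 was left out, the transgenic signals lay wholly above for 27 members, beside 24.1% of all tested genes, and wholly below for 1, beside 22.4%. By class of Pcx ratio and without transgenic replicate 2 (transgenic replicate 1 against wild type replicate 3, and transgenic replicate 3 against wild type replicates 1 and 2), 34 of the 38 members (89.5%) were higher in both classes, beside 37.6% of all tested genes; these are the same arrays, so this is no second test.

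Among the 6 genes of the catalytic V1 sector, Atp6v1a alone passed the test on all 6 arrays; without transgenic replicate 2, 4 rose. Atp6v1a encodes the subunit that hydrolyses ATP. Its signals were 2386.6, 4304.9 and 3401.3 in transgenic fat, against 1073.8, 959.9 and 968.7 in wild type fat. Every transgenic array lay above every wild type array, and replicate 2 was the highest of them. The change was 3.24-fold (log2 1.69 ± 0.26 SE, adjusted p = 0.0219). On the arrays other than transgenic replicate 2 it was 2.82-fold (1.5 ± 0.19 SE, adjusted p = 0.000834). Leaving out single arrays gave adjusted p of at most 0.14, and the call ended without transgenic replicate 3 or any 1 of the wild type arrays. It also ended after median centring (adjusted p = 0.0544) and for the mean over both probe sets, which was 1.15 (adjusted p = 0.131).

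Atp6v1h, the regulatory H subunit of V1, had 1534.6, 2092.7 and 1795.2 in transgenic fat, against 1034.4, 992.7 and 971.6 in wild type fat. Atp6v1d, a subunit of the central rotor, had 1345.0, 2383.8 and 1657.9 in transgenic fat, against 1010.8, 905.7 and 1002.8 in wild type fat. Neither group of arrays overlapped the other for these genes, yet the adjusted p were 0.104 and 0.178. Both rose when transgenic replicate 2 was left out, by 0.72 ± 0.16 SE (adjusted p = 0.0178) and 0.61 ± 0.17 SE (adjusted p = 0.0457) on the log2 scale. The other tested probe set of Atp6v1h, 1457639_at, ran the other way, with 35.9, 31.2 and 40.9 in transgenic fat, against 51.3, 54.5 and 64.9 in wild type fat (−0.49 ± 0.21 SE, adjusted p = 0.308). The mean over both probe sets was 0.17, so the rise of Atp6v1h rests on 1 of 2 probe sets. For Atp6v1d 1 of 3 probe sets passed the threshold, but the 3 ran the same way. When transgenic replicate 2 was left out, 1416951_a_at had a log2 fold change of 0.60, with an adjusted p of 0.0522. For 1438993_a_at these values were 0.66 and 0.0632. By each of the 3, every transgenic array lay above every wild type array. Atp6v1b2, the B subunit that forms the catalytic hexamer with the A subunit, had 1697.5, 1130.5 and 2868.4 in transgenic fat and 1266.4, 1040.4 and 1018.3 in wild type fat. Here transgenic replicate 2 lay among the wild type arrays. The log2 fold change was 0.67 ± 0.35 SE (adjusted p = 0.409), and the gene rose by 0.99 ± 0.23 SE (adjusted p = 0.0213) without that array. Atp6v1c1, a subunit of the stalk, had 0.74 ± 0.25 SE and 0.67 ± 0.21 SE with and without it, with adjusted p of 0.2 and 0.0748. The stalk subunit gene Atp6v1e1 had 0.31 ± 0.24 SE and 0.39 ± 0.21 SE, and its groups overlapped in both cases.

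In the membrane sector 0 of 4 genes passed the test on all 6 arrays by limma (1 was higher at an unadjusted p under 0.05), and 2 rose without transgenic replicate 2. Atp6v0b, a proteolipid of the proton-carrying ring, had signals of 1930.7, 2286.1 and 2472.2 in transgenic fat, against 1286.6, 1072.8 and 989.4 in wild type fat. The groups did not overlap, at 1.98-fold (0.99 ± 0.21 SE, adjusted p = 0.0653), and the gene rose 1.96-fold without transgenic replicate 2 (adjusted p = 0.0086). Atp6v0a1, an a subunit that anchors V0 to V1, had 1556.5, 213.9 and 2225.5 in transgenic fat and 1198.1, 913.5 and 897.7 in wild type fat. Transgenic replicate 2 was the lowest of all 6 arrays and the other transgenic arrays the highest, so that the fit gave −0.12 ± 0.81 SE (adjusted p = 0.954) with it and 0.89 ± 0.21 SE (adjusted p = 0.0227) without it. Of its 4 tested probe sets 1 rose. Atp6v0e, a small V0 subunit, had 0.48 ± 0.21 SE and 0.34 ± 0.17 SE with and without that array.

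The d subunit, which couples the V0 ring to the rotor, has a pair of genes. Atp6v0d1, the widely expressed form, had 2736.4, 1000.7 and 3808.5 in transgenic fat and 2637.9, 2365.2 and 2259.2 in wild type fat. On the log2 scale the change was −0.14 ± 0.47 SE (adjusted p = 0.897) with transgenic replicate 2 and 0.42 ± 0.18 SE (adjusted p = 0.173) otherwise. Atp6v0d2, which is not a member and is known from osteoclasts and macrophages, had 747.7, 1655.0 and 1471.8 in transgenic fat, against 111.5, 80.9 and 61.4 in wild type fat, and rose by 3.65 ± 0.38 SE (adjusted p = 0.00559, up to 0.0527 without wild type replicate 2). The difference between the 2 genes was not tested. The accessory protein genes Atp6ap1 and Atp6ap2, of which the second also encodes the prorenin receptor, passed the test on neither set of arrays. By their brightest probe sets they had 0.47 ± 0.21 SE and 0.30 ± 0.18 SE without transgenic replicate 2. By 1423662_at Atp6ap2 had 1515.2, 3189.9 and 2056.9 in transgenic fat, against 1253.6, 1093.6 and 1089.8 in wild type fat, without overlap. That gave 0.90 ± 0.30 SE (adjusted p = 0.199) with transgenic replicate 2 and 0.62 ± 0.18 SE (adjusted p = 0.0575) without it. By 1439456_x_at its groups overlapped (0.48 ± 0.26 SE and 0.26 ± 0.17 SE).

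Of the 4 other membrane proteins 0 passed the test on all 6 arrays by limma (1, Lamp1, was higher at an unadjusted p under 0.05), and Mcoln1 and Lamp1 rose without transgenic replicate 2. Mcoln1 encodes the calcium channel TRPML1. Its signals were 1208.2, 238.9 and 1565.0 in transgenic fat and 575.2, 444.3 and 587.0 in wild type fat. Transgenic replicate 2 was the lowest array, while the other transgenic arrays lay far above wild type, giving 0.53 ± 0.67 SE (adjusted p = 0.716) with it, and a rise of 1.35 ± 0.20 SE (adjusted p = 0.00228) without it. By 1416672_s_at Mcoln1 had 748.9, 608.3 and 1239.6 in transgenic fat, against 428.2, 366.2 and 377.3 in wild type fat, without overlap. That gave 1.06 ± 0.31 SE (adjusted p = 0.156) with transgenic replicate 2 and 1.27 ± 0.23 SE (adjusted p = 0.00633) without it. The remaining probe set, 1431305_at, overlapped, with −0.34 ± 0.54 SE and 0.27 ± 0.26 SE. Lamp1, a heavily glycosylated protein that lines the lysosomal membrane, had 8024.2, 7911.2 and 9574.2 in transgenic fat, against 6764.7, 5630.7 and 5548.4 in wild type fat. Those groups did not overlap (0.51 ± 0.15 SE, adjusted p = 0.154), and once transgenic replicate 2 was left out the rise was 0.56 ± 0.15 SE (adjusted p = 0.0365). Lamp2, the related protein needed for chaperone-mediated autophagy, had −0.01 ± 0.22 SE and −0.18 ± 0.17 SE with and without that array. Scarb2, which carries glucocerebrosidase to the lysosome, had 0.25 ± 0.29 SE and 0.53 ± 0.17 SE (adjusted p = 0.08).

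**Figure D2:**
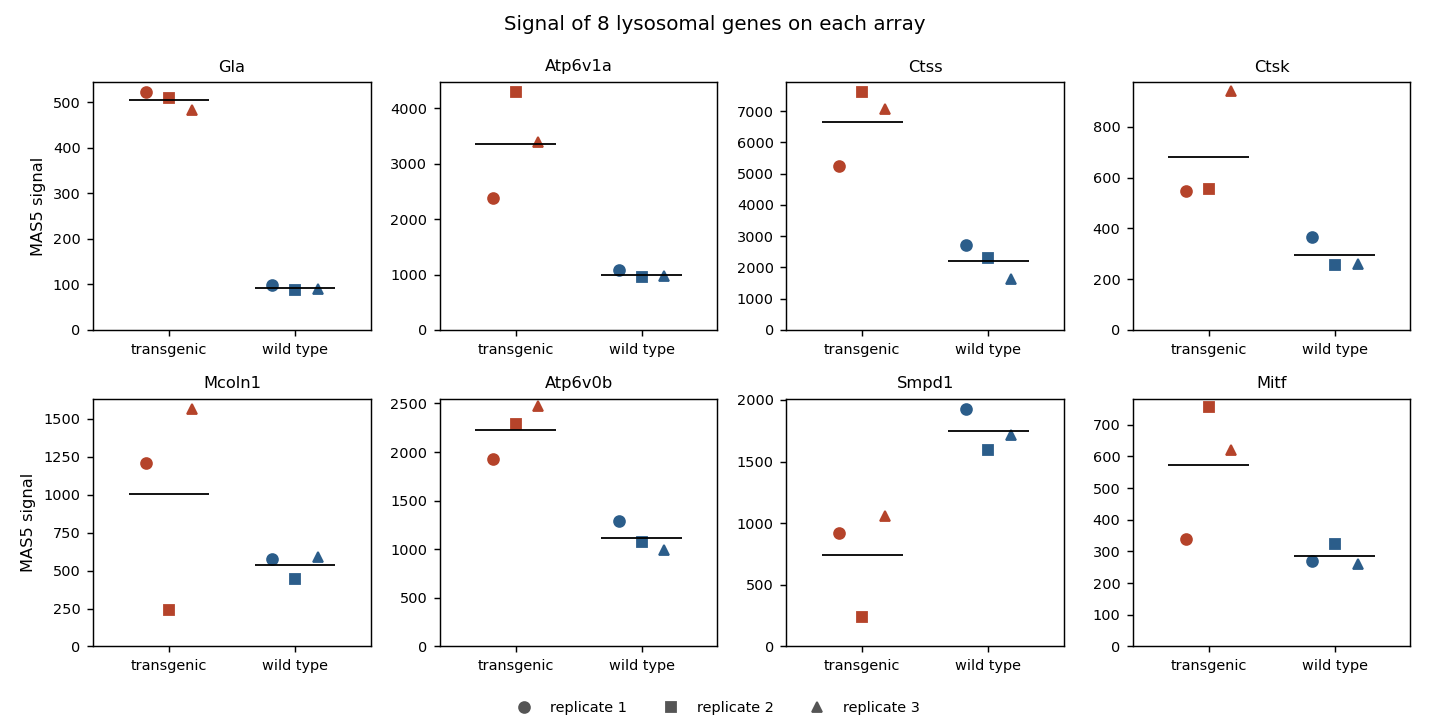
MAS5 signal (y axis, linear from 0) of the brightest probe set of 8 members on each array, with transgenic arrays on the left and wild type arrays on the right of each panel, marker shapes for replicates and a line at the group mean (n = 3). Gla sits between 483.4 and 521.7 in transgenic fat and between 87.3 and 98.4 in wild type fat; Smpd1 is the panel with all transgenic arrays below wild type, and in Mcoln1 transgenic replicate 2 lies below every other array.

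Gla had the largest fold change among the brightest probe sets of the 38 members. It encodes α-galactosidase A, which removes terminal galactose from glycolipids and is deficient in Fabry disease. Its signals were 521.7, 509.8 and 483.4 in transgenic fat, against 98.4, 87.3 and 90.0 in wild type fat. Transgenic replicate 2 lay between the other transgenic arrays. Mean signals were 505 ± 19.6 in transgenic and 91.9 ± 5.79 in wild type fat (SD, n = 3 each). The rise was 4.83-fold (2.27 ± 0.21 SE, adjusted p = 0.00387), and leaving out transgenic replicate 2 made it 4.81-fold (adjusted p = 8.62e-05). Of the arrays left out in turn, wild type replicate 2 alone ended the call (adjusted p = 0.0551). The rise of Gla rests on 1 tested probe set. Its others were too dim to be tested. Mean signals of 1449006_at were 6.07 in transgenic and 7.9 in wild type fat, and those of 1459738_x_at were 9.73 and 8.1.

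Of the other 8 sugar and lipid hydrolases and activators, 0 passed the test on all 6 arrays by limma (1, Smpd1, was lower at an unadjusted p under 0.05). Smpd1, the acid sphingomyelinase gene, had 917.9, 235.2 and 1062.1 in transgenic fat, against 1923.6, 1595.8 and 1712.1 in wild type fat. Every transgenic array lay below every wild type array. The log2 fold change was −1.47 ± 0.55 SE (adjusted p = 0.252) on all 6 arrays, and the gene fell by 0.81 (SE 0.17, adjusted p = 0.0123) without transgenic replicate 2. Its other tested probe set had −0.23 ± 0.28 SE, and 0.00 (adjusted p = 0.995) without that array, so the fall rests on 1 of 2 probe sets.

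Asah1, the acid ceramidase gene, had 1736.5, 2824.6 and 2462.3 in transgenic fat and 1556.0, 1591.6 and 1534.6 in wild type fat. The groups did not overlap, but the value did not pass the test with transgenic replicate 2 (0.55 ± 0.23 SE, adjusted p = 0.306) or without it (0.40 ± 0.18 SE, adjusted p = 0.198). Psap, whose protein is cut into the saposins that present lipids to hydrolases, had 10256.4, 2663.6 and 11363.5 in transgenic fat, against 8712.9, 8162.6 and 7686.7 in wild type fat. The fit gave −0.27 ± 0.53 SE (adjusted p = 0.819) on all 6 arrays and 0.40 ± 0.12 SE (adjusted p = 0.0673) once transgenic replicate 2 was left out, and its other probe set gave −2.01 ± 1.86 SE and 0.42 ± 0.13 SE. The glycosidase genes Gaa (acid α-glucosidase), Glb1 (β-galactosidase), Hexa (the α subunit of β-hexosaminidase), Naglu (which degrades heparan sulphate) and Neu1 (a sialidase) had log2 fold changes of −0.16 to 0.30 on all 6 arrays and of −0.04 to 0.55 without transgenic replicate 2. Naglu was lowest on both sets of arrays, Glb1 highest on the first and Neu1 on the second. Gla was thus the only member of this group past the threshold in the upward direction on either set of arrays. Whether it differed from the rest of its group was not tested.

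Among the 10 genes of protein degradation, Ctss rose on all 6 arrays, and without transgenic replicate 2 it was joined by Ctsk, Ctsh, Ctsd, Ctsl and Ctsz. Ctss encodes cathepsin S, a cysteine protease of antigen-presenting cells that trims the invariant chain of MHC class II. Its signals were 5253.9, 7617.3 and 7058.7 in transgenic fat, against 2716.7, 2294.1 and 1618.8 in wild type fat. The lowest transgenic array lay far above the highest wild type array. The rise was 3.02-fold (1.6 ± 0.25 SE, adjusted p = 0.0240), and leaving out transgenic replicate 2 made it 2.80-fold (adjusted p = 0.00252). Leaving out other single arrays gave adjusted p of at most 0.128, and the call ended without transgenic replicate 3 or any 1 of the wild type arrays. It also ended after median centring (adjusted p = 0.0559).

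Ctsk, the collagen-degrading cathepsin K known from osteoclasts, had 545.9, 553.5 and 940.7 in transgenic fat, against 367.0, 253.9 and 260.5 in wild type fat. The groups did not overlap (1.14 ± 0.31 SE, adjusted p = 0.128), and it rose 2.40-fold without transgenic replicate 2 (adjusted p = 0.0134). Ctsh, an aminopeptidase, had 1928.0, 1578.9 and 2914.6 in transgenic fat and 1455.2, 1479.9 and 1256.6 in wild type fat, with 0.57 ± 0.27 SE and, without that array, a rise of 0.76 ± 0.20 SE (adjusted p = 0.0364). Ctsl, the broadly acting cathepsin L, had 6970.4, 6723.3 and 8331.3 in transgenic fat, against 5525.7, 5203.9 and 5272.8 in wild type fat. Its groups did not overlap either, with 0.45 ± 0.14 SE (adjusted p = 0.173), and it rose by 0.51 ± 0.13 SE (adjusted p = 0.0349) once transgenic replicate 2 was left out.

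By their brightest probe sets, the aspartyl protease gene Ctsd and the carboxypeptidase gene Ctsz depended on that array for their direction or size. Ctsd had 11471.8, 1783.5 and 12058.3 in transgenic fat and 8415.1, 6702.5 and 7763.7 in wild type fat, so that the fit gave −0.27 ± 0.70 SE (adjusted p = 0.866) with transgenic replicate 2 and 0.63 ± 0.13 SE (adjusted p = 0.0144) without it. Ctsz had 5523.3, 1980.7 and 7170.9 in transgenic fat, against 4514.3, 3995.9 and 3304.1 in wild type fat, with 0.13 ± 0.46 SE and 0.69 ± 0.18 SE (adjusted p = 0.0338). By these probe sets that array lay below all wild type arrays and the other transgenic arrays above them. By 1417869_s_at Ctsz had 1879.9, 2169.6 and 2816.2 in transgenic fat, against 1277.2, 1244.4 and 910.6 in wild type fat, without overlap. That gave 0.99 ± 0.25 SE (adjusted p = 0.105) with transgenic replicate 2 and 1.01 ± 0.22 SE (adjusted p = 0.017) without it. By 1417870_x_at Ctsz had 0.26 ± 0.47 SE and 0.81 ± 0.20 SE. The remaining members of the group did not pass the test by their brightest probe set on either set of arrays: Ctsa, the protective protein of β-galactosidase and sialidase, had −0.71 ± 0.70 SE and 0.14 ± 0.22 SE, Tpp1, a tripeptidyl peptidase, had 0.22 ± 0.17 SE and 0.22 ± 0.15 SE, and Grn, the progranulin gene, had 0.57 ± 0.16 SE and 0.49 ± 0.16 SE with and without that array.

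Ctsb, cathepsin B, shows how far probe sets of a gene can differ. By its brightest probe set (1417490_at) it had 10796.1, 10698.9 and 12153.9 in transgenic fat and 9514.3, 8581.8 and 9553.9 in wild type fat, a difference of 0.28 ± 0.12 SE on the log2 scale (adjusted p = 0.298). By 1417492_at it had 3055.7, 3286.2 and 3434.4 in transgenic fat, against 1427.4, 1219.1 and 1136.4 in wild type fat, and rose by 1.36 ± 0.19 SE (adjusted p = 0.0145; at most 0.124 when single arrays were left out). By 1417491_at it had 1301.9, 1619.5 and 2151.0 in transgenic fat, against 624.6, 641.4 and 511.9 in wild type fat, and rose by 1.46 ± 0.26 SE (adjusted p = 0.0371; at most 0.204). Both calls thus ended with some arrays left out. The probe set with the smaller change reads at up to 12153.9, where the highest signal in the whole table was 15132.7. A further probe set, 1448732_at, read 65.6 on transgenic replicate 2, against 11118.6 and 11870.1 on the other transgenic arrays and 8197.7 to 9646.1 in wild type.

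**Figure D3:**
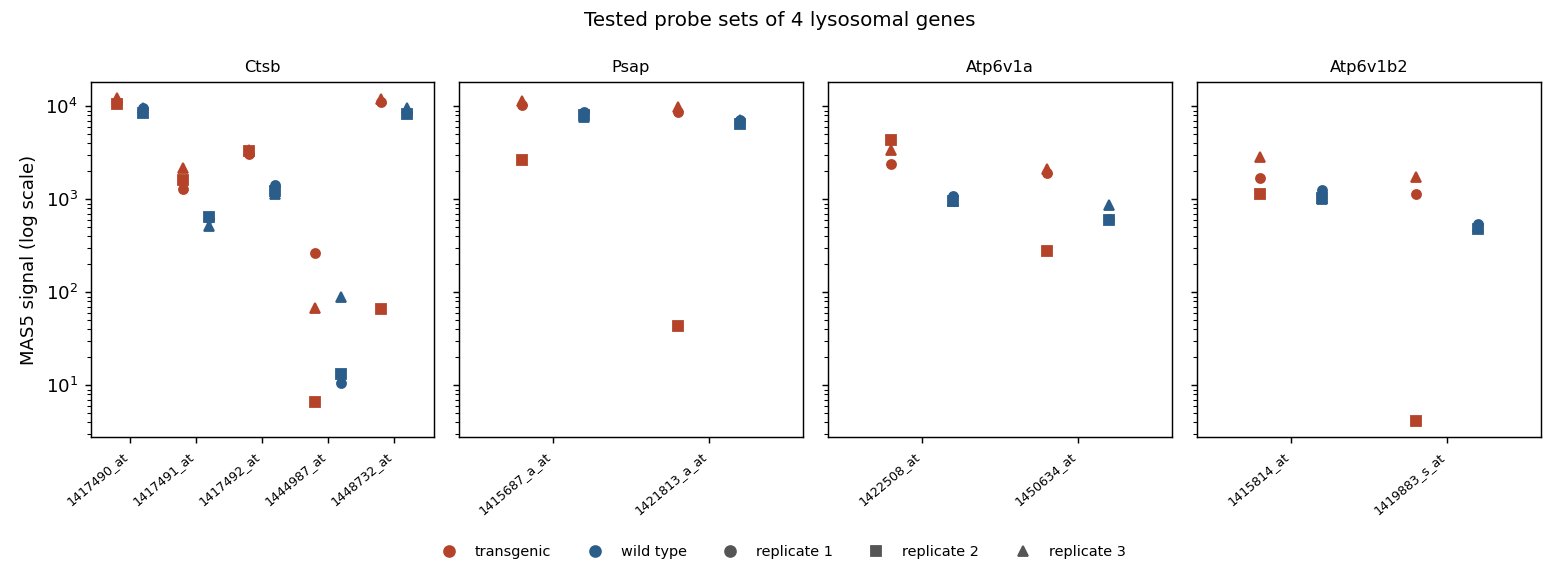
MAS5 signal (y axis, log scale) on each array for every tested probe set (x axis) of Ctsb, Psap, Atp6v1a and Atp6v1b2, with transgenic arrays left of wild type arrays and marker shapes for replicates. Transgenic replicate 2 (square) reads 6.6 and 65.6 in 2 of the 5 Ctsb probe sets, 43.2 in 1 Psap probe set and 4.1 in 1 Atp6v1b2 probe set, and lies close to the other transgenic arrays in the 3 other Ctsb probe sets and above them in 1 Atp6v1a probe set.

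The same split within a gene was seen in other members. Atp6v1b2 read 4.1 on transgenic replicate 2 by 1419883_s_at, against 1145.0 and 1733.6 on the other transgenic arrays. Atp6v1a read 276.1 there by its other tested probe set, against 1903.7 and 2141.7 on the other transgenic arrays, where its brightest probe set read 4304.9. Of the 74 tested member probe sets, 32.4% were dimmer on transgenic replicate 2 than the mean of the other transgenic arrays by over 1 log2 unit, as were 28.0% of all tested probe sets. Among members the brightest probe set did so in 11 genes. Of these 4 had a log2 fold change above 0 on all 6 arrays, against 25 of the other 27 genes. The low value on transgenic replicate 2 both picked these 11 genes and entered their fold change. This contrast thus follows in part from how the genes were picked.

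By probe set, 5 of 74 rose on all 6 arrays, a share of 6.76% beside 1.67% of all tested probe sets, and 0 fell, beside 1.3% (2.97% in either direction). On the arrays other than transgenic replicate 2, 30 rose, or 40.5% beside 6.96%, and 1 fell, or 1.35% beside 6.23% (13.2% in either direction). These 30 lay in 20 genes. Of the 15 genes that rose by their brightest probe set, 10 had more than 1 tested probe set, and in 4 of the 10 every one rose (Atp6v0b, Atp6v1a, Atp6v1b2 and Ctsz). In 5 of the 20 the brightest probe set was not among them: Atp6v1c1, Ctsb, Grn, Lamp2 and Scarb2. Scarb2 rose by 1.41 ± 0.19 SE by 1460235_at (adjusted p = 0.0013), and Grn by 0.80 ± 0.16 SE by 1456567_x_at (adjusted p = 0.0106). The 10 member probe sets that were not tested had mean signals of at most 30.6 over the 6 arrays. Names ending in _s_at or _x_at mark probe sets whose probes can also match other transcripts, which applies to the brightest ones of Atp6v0b, Atp6v1e1, Atp6ap1, Atp6ap2, Lamp2, Gaa and Grn.

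None of the 3 MiT factor genes passed the test on either set of arrays (0 by limma; 1, Mitf, was higher at an unadjusted p under 0.05). Mitf had signals of 340.0, 756.6 and 619.8 in transgenic fat and 271.1, 324.8 and 261.3 in wild type fat. Every transgenic array lay above wild type, transgenic replicate 1 only just, with 0.90 ± 0.34 SE (adjusted p = 0.26), or 0.66 ± 0.26 SE once transgenic replicate 2 was left out (adjusted p = 0.138). Tfe3 had 644.4, 440.0 and 779.4 in transgenic fat, against 516.7, 451.0 and 447.3 in wild type fat, with 0.35 ± 0.28 SE and 0.57 ± 0.18 SE (adjusted p = 0.0752). Tfeb had 293.0, 97.0 and 230.1 in transgenic fat, against 251.4, 199.3 and 188.8 in wild type fat; the groups overlapped, and the fit gave −0.15 ± 0.40 SE (adjusted p = 0.87) with that array and 0.28 ± 0.21 SE (adjusted p = 0.465) otherwise. The activity of these factors is controlled largely by their location in the cell, which RNA does not show.

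Of the 7 members with a CLEAR core in a promoter window, Gla, Atp6v1a, Ctsd and Mcoln1 rose without transgenic replicate 2, and Atp6v0d1, Atp6v0e and Ctsa did not pass the test. Of the 25 members whose windows lack these letters, 8 rose, 1 fell and 16 did not pass. Among all tested genes 8.04% rose and 7.33% fell without transgenic replicate 2. Of the members without a matched window, Atp6v1b2, Atp6v1h and Ctsh rose on those arrays. Atp6v1c1, Asah1 and Ctsb did not pass by their brightest probe sets. On all 6 arrays Gla and Atp6v1a of the 7 and Ctss of the 25 rose, and 0 members fell. The shares of all tested genes there were 2.23% and 1.54%. Ctss is among the 25; its window holds the M-box form instead. The relation between letters and change was not tested.

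Lysosomal genes outside the members were read from 4 lists. For all tested genes 2.23% rose and 1.54% fell on all 6 arrays, and 8.04% and 7.33% without transgenic replicate 2. At an unadjusted p under 0.05 by limma, 1238 of all 13112 tested genes were higher and 1174 lower on all 6 arrays. Of 48 other lysosomal enzymes and membrane proteins 5 rose and 1 fell on all 6 arrays (13 rose and 3 fell without transgenic replicate 2). Those that rose were Lipa, the acid lipase gene (1.94 ± 0.27 SE), Galc, which hydrolyses galactosylceramide (1.82 ± 0.26 SE), Creg1, a secreted glycoprotein found in lysosomes (1.79 ± 0.20 SE), Cstb, a cathepsin inhibitor (1.27 ± 0.18 SE), and Dpp7, a dipeptidyl peptidase (1.23 ± 0.24 SE), with adjusted p of 0.0064 to 0.0473. Creg1 had 3047.6, 2652.6 and 3031.2 in transgenic fat, against 741.5, 872.8 and 881.2 in wild type. The gene that fell was Acp5, tartrate-resistant acid phosphatase: it had 847.5, 304.2 and 870.1 in transgenic fat, against 4073.0, 3824.2 and 4419.2 in wild type (−2.72 ± 0.41 SE, adjusted p = 0.0216). All 6 of these calls ended with at least 1 array left out. Acp5 and Ctsk are both known from osteoclasts; with transgenic replicate 2 left out, Acp5 fell and Ctsk rose.

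Of 8 other tested proton pump subunits 2 rose, Atp6v0d2 (above) and Atp6v1g1, a stalk subunit, which had 4993.4, 7173.3 and 6085.3 in transgenic fat, against 1989.2, 1968.1 and 1668.4 in wild type (1.68 ± 0.20 SE, adjusted p = 0.00814, and 0.066 without wild type replicate 2). Once transgenic replicate 2 was left out, Tcirg1, the a3 subunit, also rose (1.19, adjusted p = 0.00605) and Atp6v0e2 fell by 1.23 (adjusted p = 0.00153). Of 14 genes of lysosomal nutrient sensing 0 passed the test by limma (3 were higher at an unadjusted p under 0.05), and Fnip2 rose without that array. Of 19 genes of autophagy and MiT targets 0 passed it (2 higher and 1 lower unadjusted). Sqstm1, Uvrag and Gpnmb rose without transgenic replicate 2: Gpnmb, a membrane glycoprotein of macrophages and a MITF target in pigment cells, had 4952.1, 670.1 and 6179.5 in transgenic fat, against 301.8, 311.4 and 223.4 in wild type (3.24 ± 0.80 SE, adjusted p = 0.0988; once that array was left out 4.25, adjusted p = 4.41e-06).

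Macrophages are rich in lysosomes, and their markers were read beside the members. Of 24 macrophage markers 6 rose (Ms4a7, Mpeg1, Clec7a, Fcgr1, Tyrobp and Aif1) and 0 fell on all 6 arrays, and 14 rose and 1, Cd163, fell without transgenic replicate 2. Those that rose were 25% and 58.3% of the markers, beside 2.23% and 8.04% of all tested genes. Of all tested genes 1.54% and 7.33% fell. Their summed signal was 45021 to 63158 on the transgenic arrays, against 27164 to 32617 on the wild type arrays, and 0 of the 24 had a mean signal below 16. Ms4a7 had 1042.0, 1583.3 and 1870.6 in transgenic fat and 255.4, 242.9 and 207.8 in wild type fat, while the receptor gene Csf1r had 4370.0, 7782.0 and 6610.4 in transgenic fat, against 4510.9, 4202.4 and 3853.6 in wild type fat, with overlap. The summed signal of 12 adipocyte markers was 32303 to 50270 on transgenic and 72893 to 81480 on wild type arrays. Mesothelial markers (6) summed to 670 to 1968 on transgenic and 4813 to 5516 on wild type arrays, and endothelial markers (7) to 1802 to 5294 on transgenic and 7501 to 8646 on wild type arrays. Lymphocyte markers (8) summed to 975 to 1265 on transgenic and 458 to 542 on wild type arrays, neutrophil markers (5) to 641 to 779 on transgenic and 182 to 325 on wild type arrays, and osteoclast markers (8) to 557 to 730 on transgenic and 726 to 802 on wild type arrays. Brown adipocyte markers (4) summed to 1002, 190 and 954 on transgenic and 210, 148 and 239 on wild type arrays, and of the 3 tested 1, Elovl3, rose on all 6 arrays and 2 without transgenic replicate 2. Fat progenitor markers (6) summed to 6297 to 10330 on transgenic and 8822 to 10722 on wild type arrays, with overlap. The part of cell makeup in the lysosomal values was not tested, and in whole tissue more cells of a type and more RNA per cell cannot be told apart.

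**Figure D4:**
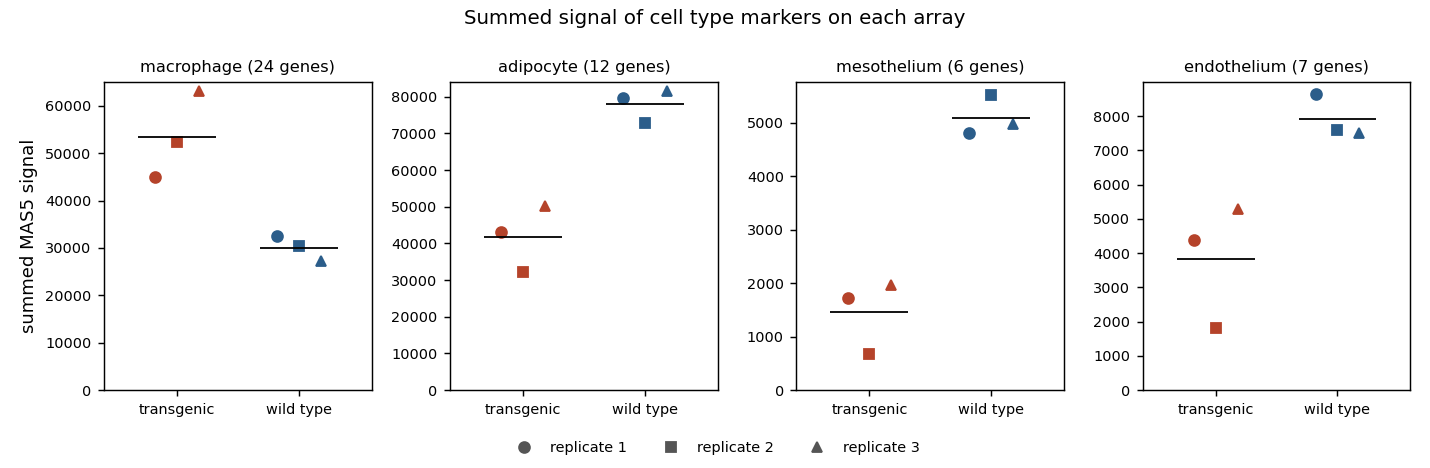
Summed MAS5 signal (y axis, linear from 0) of markers of 4 cell types on each array, transgenic left and wild type right, with marker shapes for replicates and a line at the group mean (n = 3). Macrophage sums are higher on every transgenic array, and adipocyte, mesothelial and endothelial sums are lower on every transgenic array, including those other than replicate 2.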

How the data were processed

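Each array gave 1 linear intensity per probe set, a MAS5 signal in the values deposited by the authors (per the submitters' processing notes). No source used here names the MAS5 version, scaling target or detection calls. There were 0 columns of other samples. Of 45101 probe sets, 34958 pair with 1 gene in the platform annotation, 932 with several and 9211 with none. In R 4.3.3 with limma 3.58.1, log2(signal + 16) was compared between groups (lmFit, eBayes with trend, two-sided), without further normalization; the offset understates changes of dim genes. The 64 control probe sets and the dimmest 40% of the rest were left out, and Benjamini-Hochberg adjustment ran over the remaining 27023. A gene is read by its brightest tested probe set, by mean log2 value over the 6 arrays. The scripts were tested on simulated data. Each array is a separate mouse, and their number (3 per group) limits the precision. Over all tested probe sets the median log2 difference was −0.09, and 0.02 after quantile normalization. Alternatives were other offsets, filters, scalings and fits, and leaving out each array.

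Every member is named. Values per array are given for members past the threshold with or without transgenic replicate 2 and for the MiT factors; of each other list, up to 6 genes past it are named, or, where fewer than 3 passed, those past it without that array. Values per array of Atp6v0d1, Asah1, Psap, Ctsb and Csf1r, the named further probe sets, and Cd163 and Elovl3 were added after their values were seen. The members and lists were chosen with earlier results of these data known. Tables and figures used Python 3.11.15, numpy 2.4.6, pandas 2.3.3 and matplotlib 3.10.9.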

Additional observations from a re-analysis of the deposited data

How the results depend on the processing

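Counts of rising and falling members were 3 and 0, of other lysosome genes 7 and 1, and of all tested probe sets 452 and 350. With array weights they were 14 and 0, 22 and 3, and 1911 and 1448. Without transgenic replicate 2 and with quantile normalization they were 23 and 2, 28 and 8, and 2417 and 2559. With the replicate block they were 1 and 0, 2 and 1, and 193 and 148; the replicate numbers did not pair the arrays (correlations of −0.374, 0.0892 and −0.0507), so this is no evidence about size. Quantile normalization alone gave 5 rising members and 3 falling other genes, median centring gave 1 rising member (Atp6v1a and Ctss lost their calls), and the mean over probe sets gave 2 rising members (Atp6v1a lost its call) and 2 falling other genes. With 1 array left out, rising members ran from 0 to 15 and falling ones from 0 to 1, other genes from 0 to 20 and from 0 to 4, and all probe sets from 91 to 1882 and from 50 to 1683; the highest counts are those without transgenic replicate 2 (15 and 1, 20 and 4), the lowest rising counts those without wild type replicate 2. Rising members were 1 without transgenic replicate 3 and without wild type replicate 1 or 3. Rising and falling counts of members were as in the main fit with offsets of 1 and 64, no filter or a 60% filter, and eBayes robust or without trend.

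The direction of 13 of the 38 members changed under at least 1 alternative read by the same probe set. For 9 of them, none past the threshold with or without transgenic replicate 2 (Atp6v0d1, Atp6ap1, Lamp2, Psap, Gaa, Hexa, Naglu, Neu1 and Ctsa), the lowest values were −1.32 (Ctsa) to −0.16 and the highest 0.10 (Naglu) to 0.58 (Neu1). The values of the other 4 follow. Atp6v0a1 had 0.88 with array weights, 0.02 with the mean over probe sets, 0.00 after centring, 0.02 with quantile normalization and 0.85 with that normalization and without transgenic replicate 2; with 1 array left out it ran from −0.75 to 0.89. Ctsd had 0.58 with array weights and 0.62 without transgenic replicate 2 and with quantile normalization, and ran from −0.74 to 0.63. Tfeb had 0.17, 0.29 and, with quantile normalization alone, 0.10, and ran from −0.45 to 0.28. Ctsz ran from −0.24 (without transgenic replicate 3) to 0.69 (without transgenic replicate 2), and was −0.05 without transgenic replicate 1. Transgenic replicate 2 stood apart in 3′ to 5′ ratios and in median signal; the part of either was not tested, and the cause of the other changes was not tested.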
